A study of Mus musculus with 6 samples.

Results

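Genes of alternative macrophage activation and of efferocytosis, the clearance of dying cells, 10 in all, were followed by RNA sequencing in cultured mouse peritoneal macrophages. The 10 genes are Arg1, Mrc1, Chil3, Tgm2, Mertk, Gas6, C1qa, C1qb, C1qc and Trem2. They were picked by name out of the 24454 gene symbols of the deposited count table, and 9 of the 10 had enough reads to be tested. The cells came from wild-type male C57BL6/J mice of 6 to 8 weeks of age. One group of cultures received vehicle for 5 h. A second received the bacterial endotoxin LPS at 10 ng/ml for 4 h. The third received SGA360, which binds the aryl hydrocarbon receptor (AHR), at 10 µM for 1 h and then LPS at 10 ng/ml for 4 h. Each group had 2 libraries, 6 in all, made from polyA-enriched RNA. Nothing in the labels says that the 2 libraries of a group are from different mice or dishes; p-values therefore reflect the spread between these libraries alone, which may be technical. As the LPS group has no stated vehicle pretreatment, solvent or handling cannot be told apart from SGA360.

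Alternative activation is the macrophage state best known from responses to interleukin 4 and interleukin 13, with arginase 1, the mannose receptor and the chitinase-like protein Ym1 as its usual markers in mice. Efferocytosis works through proteins that bridge phosphatidylserine on a dying cell to a receptor on the phagocyte, such as GAS6 with the receptor tyrosine kinase MERTK, and through opsonins such as complement C1q. Resident peritoneal macrophages are known for taking up dying cells without inflammation, and carry many of these proteins at rest.

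Total counts per library ran from 7726973 to 9529817. Vehicle replicate 1 stood apart: 10001 symbols had a count there and 12282 to 12643 in each other library, while its share of counts on ribosomal Rn45s was 4.92%, compared with 0.22% to 0.684%. The summed level of 9 macrophage markers in the table lay between 43242 and 52714 CPM (counts per scaled library size, with a common total for all libraries) in every library, with Itgam, which has 2 transcript rows, at 0. Other cells were present too. The summed level of 6 fibroblast markers was 4418 to 5379 CPM over the 6 libraries. That of 9 mesothelial markers was 510 to 540 CPM in vehicle and 360 to 379 CPM in the 4 LPS-treated libraries. That of 7 large peritoneal macrophage markers was 505 to 521 CPM in vehicle and 376 to 413 CPM with LPS, with none of either list at 0. With LPS alone, 3 of the 9 mesothelial markers fell and 6 had no call. Of the 5 fibroblast markers tested, 1 fell and 4 had no call. Their median log2 fold change was −0.41, which the sum of that list does not show. Of the 7 large peritoneal macrophage markers 2 fell (Cd5l, Gata6), 2 rose (Timd4, Prg4) and 3 had no call, with a median log2 fold change of −0.11, so the lower sum does not stand for the list. Of 8 small peritoneal macrophage markers, whose sum was 555 to 562 CPM in vehicle and 657 to 666 CPM in the treated libraries, 1 rose, 2 fell and 5 had no call. Their part in the results was not tested, and in bulk RNA fewer cells of a type and less RNA per cell cannot be told apart.

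With LPS alone, 7 of the 9 tested genes fell, 1 rose and 1 had no call. Arg1, Mertk and Gas6 fell 3.92- to 4.82-fold, Mrc1 and the C1q genes 1.42- to 1.82-fold, and Tgm2 rose 3.28-fold. A gene was called where its adjusted p (edgeR quasi-likelihood, Benjamini-Hochberg over 9389 genes) was under 0.05; 36.4% of all genes were, 17.0% lower and 19.4% higher, and the libraries of 65.9% did not overlap. The split of higher to lower calls was 1820 to 1593, but 1460 to 1983 with upper-quartile scaling and 1278 to 2178 with scaling by library totals. The median log2 fold change of the 9 genes was −0.69, against −0.01 over all genes tested. These counts of 1 rise and 7 falls were the same under each of the 16 alternative analyses, including the one without vehicle replicate 1.

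**Figure D1:**
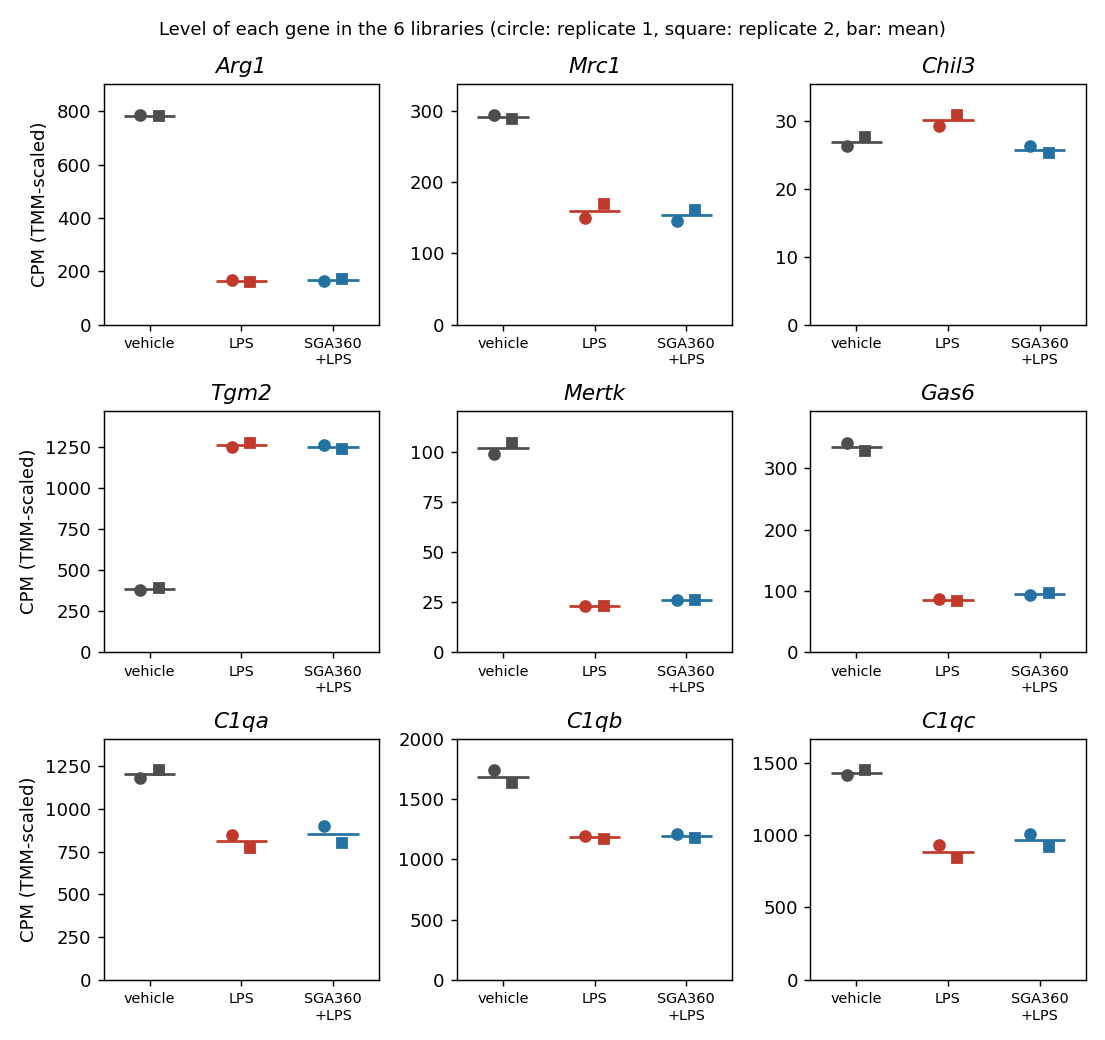
Level in CPM (vertical axes, each from 0) of the 9 tested genes in vehicle, LPS and SGA360+LPS, with a circle for replicate 1, a square for replicate 2 and a bar for the mean. Vehicle libraries lie apart from LPS libraries in each panel, while the LPS and SGA360+LPS libraries lie close together or overlap in the panels other than that of Chil3.

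Arg1 encodes arginase 1, which splits arginine into ornithine and urea. Its level was 787 and 783 CPM in vehicle replicates 1 and 2, 167 and 159 CPM with LPS, and 164 and 169 CPM with SGA360+LPS. Both vehicle libraries were far above all 4 treated ones, and the treated libraries overlapped. Means were 785 ± 2.64 CPM (vehicle) and 163 ± 5.89 CPM (LPS; SD, n = 2), which is a log2 fold change of −2.27 (SE 0.07, edgeR adjusted p = 3.13e-09), or 4.82-fold lower with a 95% interval of 4.35 to 5.34. This was the 103rd lowest value among the 9389 genes tested.

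Mrc1 encodes the mannose receptor CD206, an endocytic receptor for mannose-bearing glycoproteins. It stood at 294 and 289 CPM in vehicle, 149 and 170.0 CPM with LPS, and 146 and 161 CPM with SGA360+LPS. The vehicle libraries were again above all treated ones. The log2 fold change with LPS was −0.87 (SE 0.08, edgeR adjusted p = 2.23e-05), a 1.82-fold fall with a 95% interval of 1.60 to 2.08. The span of the gene holds the microRNA gene Mir511 on the same strand.

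Chil3 encodes Ym1, a chitinase-like protein without known chitinase activity. It had 26.3 and 27.6 CPM in vehicle, 29.3 and 30.8 CPM with LPS, and 26.3 and 25.2 CPM with SGA360+LPS. The LPS libraries were slightly above both other groups, by less than the test could call. The log2 fold change with LPS was 0.16 with a 95% interval of −0.13 to 0.45 (edgeR adjusted p = 0.381), so a change of up to 1.37-fold lies within the interval. Chil3 has a close paralog, Chil4, which was listed at 0 counts in all 6 libraries, so no reads were assigned to it. How reads matching both genes were handled is not known here. Ym1 is also made by neutrophils, and 8 neutrophil markers summed to 4.69 and 9.57 CPM in vehicle and to 10.3 to 16.9 CPM in the treated libraries, with Ly6g and S100a9 at 0 throughout; their part in the Chil3 level was not tested.

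Tgm2 encodes transglutaminase 2, which crosslinks proteins and on the macrophage surface assists the integrin beta 3 receptor in taking up dying cells. Its level was 380 and 390 CPM in vehicle, 1249 and 1273 CPM with LPS, and 1261 and 1237 CPM with SGA360+LPS. All treated libraries lay above both vehicle libraries. Means were 385 ± 7.43 CPM (vehicle) and 1261 ± 17.3 CPM (LPS; SD, n = 2), which is a log2 fold change of 1.71 (SE 0.06, edgeR adjusted p = 1.35e-08), or 3.28-fold with a 95% interval of 2.98 to 3.60. Itgb3, which encodes integrin beta 3, fell by 1.46 on the log2 scale in the same comparison (edgeR adjusted p = 0.000302). The end of the Tgm2 span overlaps Rprd1b on the opposite strand, which had 0 counts in all libraries, and the span holds the transcript gene Gm20412 on that strand.

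Mertk, the receptor of the TAM family that binds GAS6 and protein S, was at 98.9 and 104 CPM in vehicle, 23.1 and 23.0 CPM with LPS, and 25.9 and 26.2 CPM with SGA360+LPS. The LPS libraries were the lowest pair, the SGA360+LPS pair lay just above them, and both were far below vehicle. The log2 fold change with LPS was −2.14 (SE 0.11, edgeR adjusted p = 1.51e-07), a 4.41-fold fall with a 95% interval of 3.73 to 5.21. Its span holds the RNA genes Gm14011 on the opposite strand and Gm23172 on its own strand.

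Gas6, which encodes the vitamin K-dependent bridging ligand of MERTK, followed a like course. It was at 342 and 328 CPM in vehicle, 87.1 and 83.5 CPM with LPS, and 92.7 and 96.3 CPM with SGA360+LPS. Again the 3 groups did not overlap, with LPS lowest and vehicle highest. With LPS it fell 3.92-fold (95% interval 3.49 to 4.41), a log2 fold change of −1.97 (SE 0.08, edgeR adjusted p = 2.25e-08). Its end overlaps Tmem255b on the opposite strand, which had 0 counts in all libraries. Gas6 is also made outside macrophages, and the fibroblast and mesothelial levels given above are the measure of other cells in these cultures.

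The promoters of Mertk and Gas6 are shown because the genes of this receptor and ligand fell together. They are given 5′ to 3′ as RefSeq has them (GRCm38.p6), with matches of the GC box GGGCGG on either strand in capitals. Mertk has 200 bases at chr2:128698665-128698864 on the plus strand, and Gas6 has 100 bases at chr8:13494536-13494635 on the minus strand, ending at the base before the start site.
Mertk: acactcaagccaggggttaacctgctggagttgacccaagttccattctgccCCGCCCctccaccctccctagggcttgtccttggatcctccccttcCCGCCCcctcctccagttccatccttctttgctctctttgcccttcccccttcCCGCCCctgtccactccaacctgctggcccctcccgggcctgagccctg
Gas6: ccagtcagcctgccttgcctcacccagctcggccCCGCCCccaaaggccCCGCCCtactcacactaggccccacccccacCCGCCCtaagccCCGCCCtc
The 250 bases before the start held 3 GC boxes in Mertk and 4 in Gas6. Of all 32851 RefSeq promoters, 32.7% held at least 1 in the same window and 8.47% held at least 3. Among the other genes with a RefSeq promoter, Mrc1 and C1qc held 1 each, and Chil3, C1qb and Trem2 held 0. A match describes the letters and is not evidence of a bound factor.

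C1qa, C1qb and C1qc encode the A, B and C chains of C1q, the recognition part of the classical complement pathway and an opsonin for dying cells; macrophages are a main source of it. C1qa was at 1181 and 1226 CPM in vehicle, 849 and 773 CPM with LPS, and 899 and 801 CPM with SGA360+LPS. C1qb was at 1740.0 and 1633 CPM in vehicle, 1197 and 1172 CPM with LPS, and 1214 and 1176 CPM with SGA360+LPS. C1qc was at 1414 and 1449 CPM in vehicle, 930 and 840 CPM with LPS, and 1007 and 920 CPM with SGA360+LPS. For each chain the vehicle libraries were above all treated ones, and the LPS and SGA360+LPS libraries overlapped.

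The log2 fold changes with LPS were −0.57 (SE 0.08) for C1qa, −0.51 (SE 0.06) for C1qb and −0.69 (SE 0.07) for C1qc, with edgeR adjusted p = 0.000225, 0.000107 and 3.83e-05. These are falls of 1.48-, 1.42- and 1.62-fold. The 95% intervals of the 3 chains overlap one another. Summed over the chains, the level was 4322 ± 19.9 CPM in vehicle, 2881 ± 134 CPM after LPS and 3009 ± 158 CPM after SGA360 and LPS (SD, n = 2).

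The table also allows the balance of the chains to be read within a library, where scaling between libraries plays no part. Per kb of exon, C1qb took 38.0% to 42.2% of the 3 chains, C1qc 30.5% to 34.0% and C1qa 26.8% to 28.4% over the 6 libraries, so the order of the chains was the same in each. The share of C1qc was 32.95% and 34.0% in vehicle, 31.6% and 30.5% with LPS, and 32.6% and 32.1% with SGA360+LPS. The C1q protein is known to hold the chains in equal numbers, and the reads per length were unequal in every group.

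**Figure D2:**
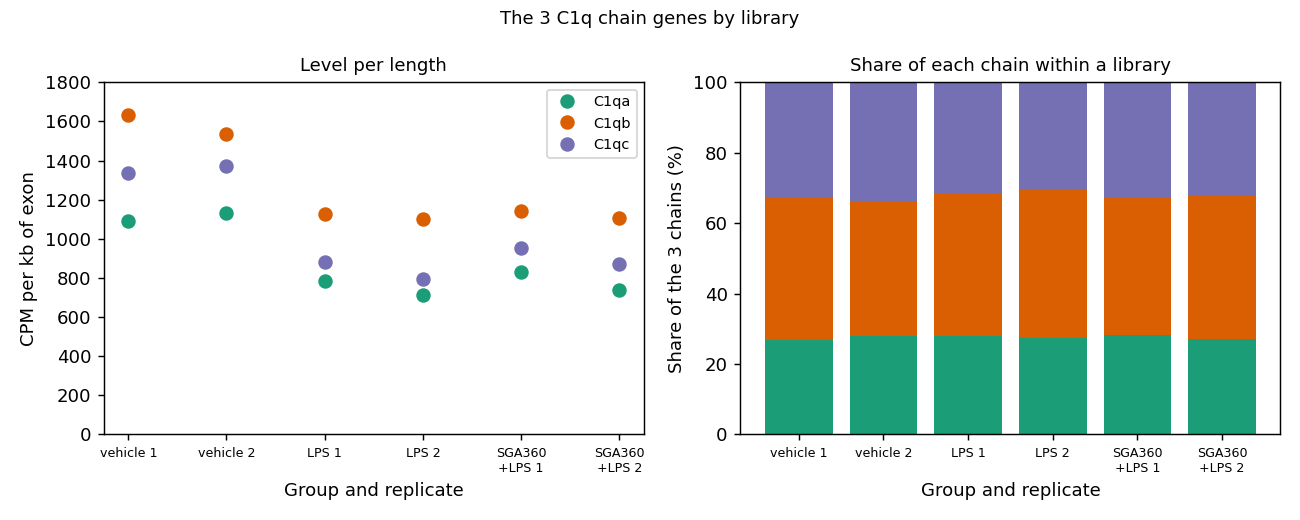
Left, level of C1qa, C1qb and C1qc in CPM per kb of exon (vertical axis, from 0) in each library; right, the share of each chain in the sum of the 3, in percent. All 3 chains are lower in the 4 treated libraries than in vehicle, and C1qb holds the largest share in each library, from 38.0% to 42.2%.

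The 3 genes lie side by side on the minus strand of chromosome 4 within 18.7 kb (mm10), with C1qb from 136880145 to 136886177, C1qc from 136889802 to 136892914 and C1qa from 136895916 to 136898844. Upstream stretches of C1qb and C1qc are shown because these neighbours fell together. Matches of GAGGAA on either strand, the core letters bound by the macrophage factor PU.1 and other ETS proteins, are in capitals. They come from RefSeq (GRCm38.p6, minus strand): C1qb has 100 bases at chr4:136886211-136886310 and C1qc 99 bases at chr4:136893066-136893164.
C1qb: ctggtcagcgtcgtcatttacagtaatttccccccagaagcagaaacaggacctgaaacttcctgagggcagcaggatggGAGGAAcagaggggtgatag
C1qc: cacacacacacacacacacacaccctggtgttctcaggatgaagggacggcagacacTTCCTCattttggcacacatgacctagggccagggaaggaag
Each had 1 match in the 250 bases before its start, at position −30 in C1qb and −193 in C1qc counted from the start site. Of all RefSeq promoters 23.3% held at least 1 match in the same window and 0.429% held at least 3. The match is not particular to these neighbours: Mrc1 held 3 and Trem2 1, while Mertk, Chil3 and Gas6 held 0. Here too a match is not evidence of a bound factor, and its part in the falls was not tested.

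RefSeq promoters were found for 7 of the 10 genes: Mrc1, Mertk, Chil3, C1qb, C1qc, Gas6 and Trem2. The palindrome TTC and GAA with 4 bases between, a spacing preferred by the interleukin 4 factor STAT6, matched in 0 of these 7 windows and in 5.85% of all promoters. The core GCGTG of the AHR response element matched in Trem2 alone among the 7, once, against 28.2% of all promoters. These letters being absent from a window of 250 bases says nothing of more distant elements.

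Trem2, a lipid-sensing receptor that signals through the adaptor DAP12, had 2 counts in vehicle replicate 2 and 0 in the other 5 libraries, and was not tested. A count of 0 allows up to 3 counts, which was 0.312 to 0.399 CPM in these libraries. Trem2 has 2 transcript rows at the same position, and symbols with several rows held few reads in this table: the 5639 such symbols took 1.87% of the counts. Of them 51.0% had no count in any library, while this held for 37.1% of the 18815 others. No statement on Trem2 expression is made for that reason. The other 9 genes have 1 row each.

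**Figure D3:**
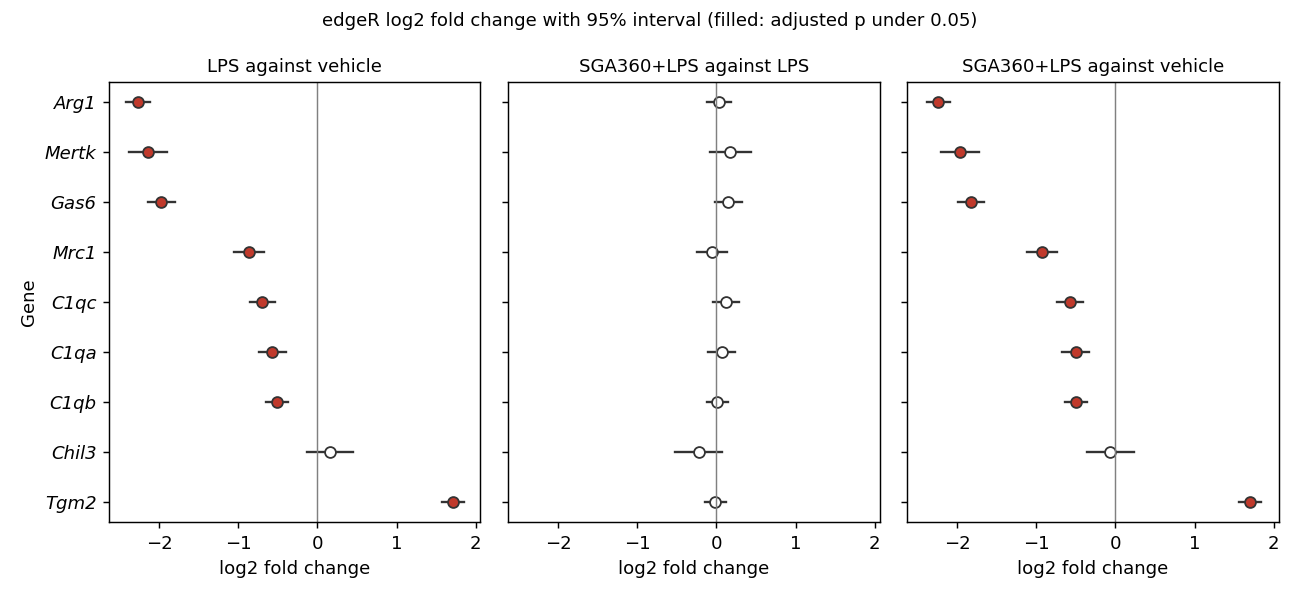
Log2 fold change (horizontal axes) of the 9 tested genes in the 3 comparisons, with 95% intervals from edgeR; filled points have an adjusted p under 0.05. Arg1, Mertk and Gas6 sit near −2 against vehicle in both treated groups and Tgm2 near 1.7, while all points of SGA360+LPS against LPS have intervals that include 0.

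Between SGA360+LPS and LPS alone, the question is whether pretreatment with SGA360 altered these genes. None of the 9 tested genes was called by edgeR's quasi-likelihood test, where 0.0746% of the 9389 genes were. An unadjusted p under 0.05 in this test was found for 0 of the 9 and for 276 of the 9389. DESeq2 and limma-voom also called 0 of the 9, and only 8 and 9 of the 9389 genes. With so few calls over all genes, 0 of 9 says little about these genes. The largest differences were those of Chil3, Mertk and Gas6, the 3 genes whose SGA360+LPS libraries did not overlap with the LPS libraries, which 39.5% of all tested genes did not either. Means in LPS and SGA360+LPS, in this order, were 30.0 ± 1.11 and 25.7 ± 0.763 CPM for Chil3, 23.1 ± 0.131 and 26.1 ± 0.219 CPM for Mertk, and 85.3 ± 2.54 and 94.5 ± 2.58 CPM for Gas6 (SD, n = 2).

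A missing call does not show that the groups were alike, so the intervals matter here. For Mertk the log2 fold change of SGA360+LPS against LPS was 0.18 with a 95% interval of −0.08 to 0.44, and for Gas6 0.15 with an interval of −0.02 to 0.32. For Chil3 it was −0.22, from −0.52 to 0.07. C1qc was at 0.12 (−0.04 to 0.28) and C1qa at 0.07 (−0.10 to 0.24). The narrowest intervals were those of Tgm2 at −0.01 (−0.14 to 0.12), C1qb at 0.01 (−0.12 to 0.15) and Arg1 at 0.03 (−0.12 to 0.18), and Mrc1 was at −0.06 (−0.25 to 0.13). Over all 9 genes, the bounds ran from −0.52 to 0.44, so a change of 2-fold or more lies outside each interval. The small values of Arg1, Mrc1, Tgm2, C1qa and C1qb changed sign when 1 library was left out, and that of Tgm2 also under scaling by library totals.

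Against vehicle, SGA360+LPS gave 1 higher gene and 7 lower ones among the 9, where 33.1% of all tested genes changed, 17.9% higher and 15.2% lower (1678 and 1429 genes, but 1359 and 1819 with upper-quartile scaling and 1212 and 1973 with library totals). Libraries did not overlap for 8 of the 9, and for 64.9% of all genes. This comparison shares its vehicle libraries with that of LPS alone, so the values are given side by side and not as a second observation. The log2 fold change was −2.27 with LPS and −2.24 with SGA360+LPS for Arg1, −2.14 and −1.96 for Mertk, and −1.97 and −1.82 for Gas6. It was −0.87 and −0.93 for Mrc1 and 1.71 and 1.70 for Tgm2. For the C1q chains it was −0.57 and −0.50 (C1qa), −0.51 and −0.50 (C1qb) and −0.69 and −0.57 (C1qc). Chil3 had no call against vehicle with SGA360+LPS either (−0.07, edgeR adjusted p = 0.746).

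Levels of different genes can be set side by side only per length, here as CPM per kb of exon. In vehicle the order from high to low was C1qb (1584 ± 71.0), C1qc (1355 ± 23.2), C1qa (1109 ± 28.8), Arg1 (528 ± 1.78), Gas6 (128 ± 3.83), Tgm2 (108 ± 2.09), Mrc1 (54.5 ± 0.722), Mertk (28.5 ± 1.10) and Chil3 (17.4 ± 0.600), as mean ± SD of 2 libraries. In this measure C1qa, the lowest of the C1q chains, stood at the percentile 99.4 of the tested genes and Chil3 at 61.6. With LPS, Tgm2 moved to the fourth place at 354 ± 4.85 CPM per kb, above Arg1 at 110 ± 3.96, and Mertk fell to the last place at 6.45 ± 0.0368, below Chil3 at 19.4 ± 0.715. The order with SGA360+LPS was the same as with LPS. In each group the libraries of neighbouring genes in this order did not overlap, though Gas6 (32.7 ± 0.976) and Mrc1 (29.8 ± 2.75) came close with LPS, as did C1qc (837 ± 59.7) and C1qa (747 ± 49.2).

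**Figure D4:**
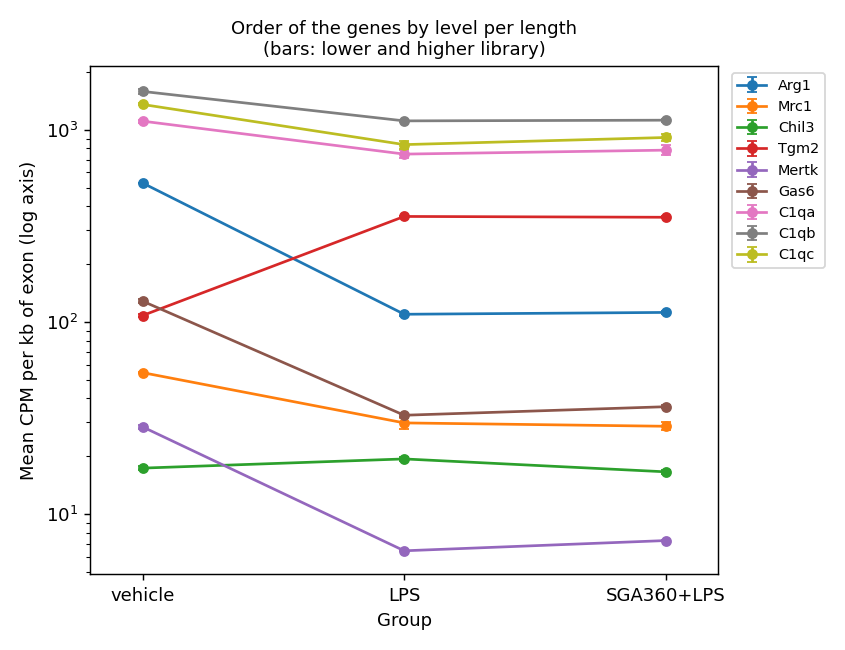
Mean level of the 9 tested genes in CPM per kb of exon (log axis) in the 3 groups, with bars from the lower to the higher library. The C1q chains are highest throughout, Tgm2 passes Arg1 and Gas6 with LPS, and Mertk drops below Chil3.

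Genes of like pattern were ranked by the root mean square difference of log2 CPM over the 6 libraries, after centring each gene on its own mean. Among the 10 genes themselves, Mertk was nearest to Gas6 (0.0794) and then to Arg1 (0.123), and C1qa to C1qc (0.0524) and C1qb (0.0680). Outside them, among tested genes with a mean of at least 10 CPM, genes with a pattern close to that of Arg1 were Gucy1a3 (0.0667), the Fc receptor gene Fcgr1 (0.0739), Nceh1 (0.0875) and P2ry6 (0.126). Mertk was nearest to Adssl1 (0.0655), Hip1 (0.0718), Tmem154 (0.0781), Tpcn1 (0.0858) and Nceh1 (0.111). C1qa was nearest to Slc9a3r1 (0.0275), Hectd3 (0.0323), Cdkn2c (0.0362), Idh2 (0.0392) and Galnt2 (0.0446). With 3 groups of 2 libraries these values describe a common course over 3 conditions and nothing more.

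Related genes were read from 6 lists that leave out the 10 genes. They hold 125 distinct symbols of the table, of which 66 of 76 with 1 row and 8 of 49 with several rows were tested. Among those with several rows and no test are Axl and Tyro3, the other TAM receptors, and the opsonin gene Mfge8. Of 16 other alternative activation genes tested, 7 rose with LPS, 5 fell and 4 had no call (median log2 fold change 0.07). Ccl22, a chemokine for regulatory T cells, rose from 12.1 ± 1.37 to 79.0 ± 0.226 CPM (SD, n = 2), and the related Ccl17 went from 3 and 1 counts in vehicle to 35 and 43 with LPS. Kdm6b, a histone H3 demethylase gene, rose by 1.33 on the log2 scale. Its vehicle libraries differed, at 15.5 and 30.7 CPM, and the rise was 0.95 without vehicle replicate 1 and 1.93 without vehicle replicate 2. The transcription factor gene Klf4 fell by 1.05. The 5 falls were 2 without LPS replicate 1 and 3 without LPS replicate 2. Irf4 (0.28) and Ppargc1b (−0.23) had no call.

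Of 12 other efferocytosis receptors and bridging proteins, 4 rose, 7 fell and 1 had no call (median −0.34). Cd93, a receptor gene once linked to C1q, fell by 1.82, as did Cd300a, which encodes an inhibitory receptor for phosphatidylserine. The scavenger receptor genes Scarf1 and Olr1 rose by 1.97 and 3.30; Olr1 has 3 transcript rows and is uncertain. Pros1, encoding protein S, the other ligand of MERTK, was at 95.7 and 94.4 CPM in vehicle and 61.2 and 73.1 CPM with LPS, a fall of 0.50 on the log2 scale (edgeR adjusted p = 0.00397). Calr, encoding the eat-me signal calreticulin, had no call.

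Of 14 genes of the engulfment machinery and of corpse handling, 4 rose, 7 fell and 3 had no call (median −0.44). The falls included the adaptor gene Gulp1 (−1.24) and the sterol exporter gene Abcg1 (−1.16), while the GTPase gene Rac2 rose by 1.43. Rac1 (−0.08) and Elmo1 (−0.51) had no call. Gulp1 lost its call without LPS replicate 2 (edgeR adjusted p = 0.139, range over the alternatives 0.000406 to 0.139). The 4 rises were 2 without either LPS library or either SGA360+LPS library, with upper-quartile scaling, with scaling by library totals, with DESeq2, and in the fit on LPS and vehicle alone.

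Of 8 genes of arginine and polyamine metabolism, 4 rose, 0 fell and 4 had no call (median 0.33). The falls were 1 with upper-quartile scaling, with library totals and without vehicle replicate 2, and 0 with DESeq2 and limma-voom. Arg2, which encodes the mitochondrial arginase, went from 3.47 ± 0.784 to 7.43 ± 0.161 CPM (SD, n = 2; log2 fold change 1.10, SE 0.28), and stood at 10.96 ± 0.128 CPM with SGA360+LPS. Its call was lost without LPS replicate 1 (edgeR adjusted p = 0.0567) or 2 (0.0772) and in the fit on LPS and vehicle alone (0.0585), with 0.000993 as the lowest p of the alternatives. Srm and Odc1, of polyamine synthesis, rose by 0.43 and 0.41. The arginine transporter gene Slc7a2 went from 0 and 1 counts in vehicle to 23 and 31 with LPS, but has 2 transcript rows and is uncertain. Oat (−0.12) and Sms (0.26) had no call.

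Of 14 other complement genes, 5 rose, 3 fell and 6 had no call (median 0.09). C3 rose from 487 ± 4.29 to 1027 ± 46.2 CPM (SD, n = 2) and C1ra, encoding the protease that C1q activates, by 0.70, while C3ar1, the C3a receptor gene, fell by 1.68. The C1q genes fell while C1ra and C3 of the same pathway rose. C4b (−0.09) and Cd55 (−0.02) had no call.

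Of 11 tested genes of the Trem family and of TREM2 signalling, 6 rose, 1 fell and 4 had no call (median 0.77). Trem1, an amplifier of inflammation that lies on the same chromosome as Trem2, had 0 and 6 counts in vehicle, 69 and 69 with LPS, and 47 and 66 with SGA360+LPS. Trem3 had 0 and 2 counts, 45 and 55, and 35 and 54. The kinase gene Syk rose by 1.49 and Ms4a6c by 2.26, both with 2 transcript rows. The 1 fall, that of the DAP12 gene Tyrobp, was not called without LPS replicate 1 or 2. Plcg2 (0.26) and Hcst (−0.27) had no call. Between SGA360+LPS and LPS, 0 genes of these 6 lists were called by edgeR.

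**Figure D5:**
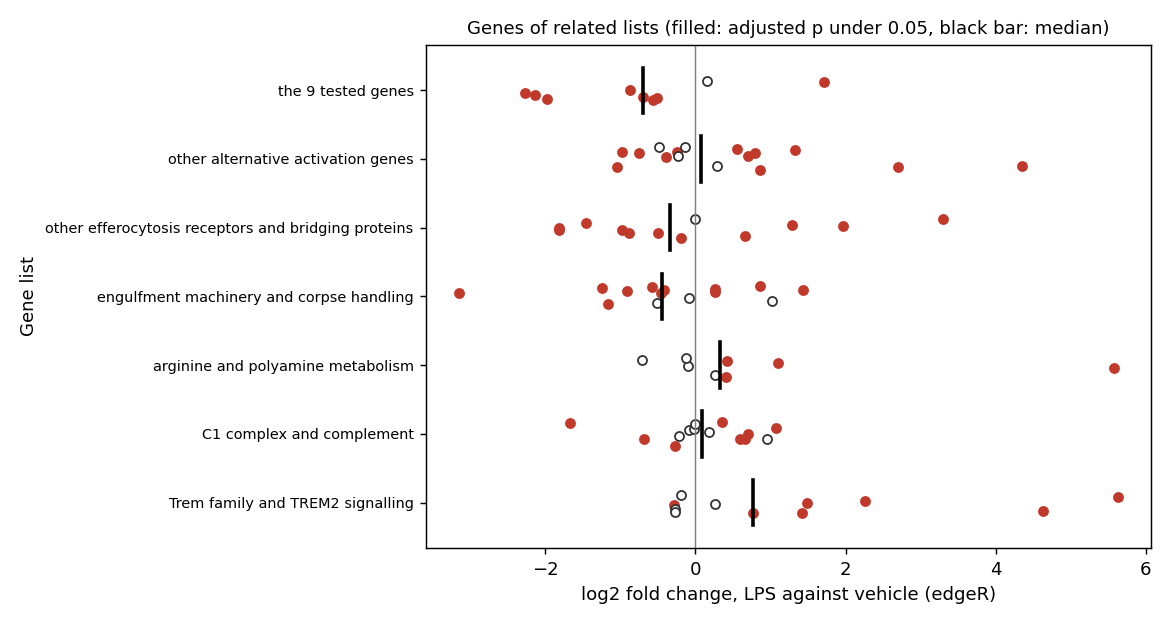
Log2 fold change of LPS against vehicle (horizontal axis) for the 9 tested genes and for 6 lists of related genes, each point 1 gene, filled where the adjusted p was under 0.05, with a black bar at the median. The 9 genes have their median at −0.69, and each related list holds both rises and falls or uncalled genes, with medians from −0.44 to 0.77.

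In the mm10 build, per the deposited table with 1 added to each start, Arg1 (NM_007482) lies on chromosome 10 at 24915207 to 24927470 (minus strand). Mrc1 (NM_008625) lies on chromosome 2 at 14229414 to 14332023 (plus). Chil3 (NM_009892) lies on chromosome 3 at 106147554 to 106167564 (minus) and Tgm2 (NM_009373) on chromosome 2 at 158116405 to 158146392 (minus). Mertk (NM_008587) lies on chromosome 2 at 128698997 to 128802188 (plus) and Gas6 (NM_019521) on chromosome 8 at 13465374 to 13494535 (minus). Trem2 (NM_001272078 and NM_031254) lies on chromosome 17 at 48346401 to 48352276 (plus). All 10 are protein-coding genes. The strand setting of the counting is unknown here, so reads of overlapping partners cannot be told apart.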

How the data were processed

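RNA of 6 libraries in 3 groups was analysed from 1 table of raw counts that the authors deposited, with 34751 transcript rows, exon lengths and positions. The submitters' processing notes name mm10, HTSeq 0.5.4p3 and TopHat2 2.0.13. Strand and the handling of shared reads: not given in the sources used here. Counts were summed per symbol. Genes passing filterByExpr (minimum count 10) were scaled by TMM and tested with edgeR 4.0.16 (glmQLFit, glmQLFTest) in R 4.3.3, in 1 model of the 3 groups with 3 residual degrees of freedom. Benjamini-Hochberg adjustment covered all 9389 genes, with a threshold of 0.05. SE is the absolute log2 fold change over the square root of F, and intervals use the t quantile of the same fit. CPM use TMM-scaled library sizes. Likeness used log2(CPM + 0.5). Floors of 3 counts cover counting error only, as there were no molecular identifiers.

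The members and lists were chosen with earlier results of these data known. Named are the 10 genes and, per list, up to 4 called genes with the largest change and a mean of at least 1 CPM, and up to 2 abundant uncalled ones. Itgb3, Pros1, Tyrobp, Cd5l, Gata6, Timd4, Prg4, Axl, Tyro3 and Mfge8, and the neighbouring genes in the closing section, were named after their values were seen. Alternatives were RLE and upper-quartile scaling, DESeq2 1.42.0, limma-voom (limma 3.58.1), no filter, a filter of 5 CPM, transcript rows, 2 groups alone, a replicate block, each library left out, and, added after the data were seen, scaling by library totals. A few genes meeting these naming rules are left out here. The scripts were tested on simulated data. No pair of replicates agreed within sampling noise. The mean chi-square per gene was 44.4 for the vehicle pair, 6.33 for LPS and 4.23 for SGA360+LPS. Correlations of log CPM within these pairs were 0.962, 0.992 and 0.993, so the vehicle pair agreed least.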

Additional observations from a re-analysis of the deposited data

How the results depend on the processing

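Against vehicle, the 8 calls among the 9 tested genes held their direction and their side of the threshold in all 16 alternatives, for LPS and for SGA360+LPS. Their log2 fold changes with LPS ranged from −2.40 to −2.22 for Arg1, −0.64 to −0.45 for C1qb and 1.58 to 1.75 for Tgm2. Counts over all genes moved more. With 1 library left out, 2091 to 5494 genes were called for LPS against vehicle (3413 with all libraries), 0 to 16 for SGA360+LPS against LPS (7) and 1831 to 5315 for SGA360+LPS against vehicle (3107). For SGA360+LPS against LPS, 17 were called with no filter and 12 in the fit on these groups alone; the cause was not tested. Scaling by library totals shifted the median of all genes to −0.14 with LPS and gave 1278 higher and 2178 lower calls, and upper-quartile scaling 1460 and 1983, against 1820 and 1593. With 1 library left out, the uncalled log2 fold changes of SGA360+LPS against LPS ran from −0.0015 to 0.066 for Arg1, −0.15 to 0.043 for Mrc1, −0.031 to 0.0028 for Tgm2, −0.014 to 0.15 for C1qa and −0.0084 to 0.032 for C1qb. That of Tgm2 was 0.0015 under scaling by library totals. With the replicate number as a block, 3434, 5 and 3136 genes were called in the 3 comparisons, and 8, 0 and 8 of the 9. The deviations of same-numbered libraries had low correlations (−0.0066, 0.0145 and 0.163), the last for LPS with SGA360+LPS; with 2 libraries a group these were not taken as pairing, and the labels give no shared source. With 2 libraries a group the shared spread limits small changes; as a common biological coefficient of variation it was 0.0951, and 0.0540 for the 4 treated libraries alone.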

Other observations

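The tested genes within 250 kb of these loci did not all move with them. Within 250 kb of the C1q genes, the 1 other tested gene was Zbtb40, with a log2 fold change of 0.22 with LPS (edgeR adjusted p = 0.232). In the same window around Arg1, Enpp3 was at −0.86 (edgeR adjusted p = 0.0352) and Akap7 at −0.73 (0.0222). They lie 79011 and 241619 bases from Arg1, and untested genes between were not looked at. Around Gas6, Rasa3, a GTPase-activating protein gene at 72682 bases, fell by 1.68 (edgeR adjusted p = 1.05e-07). Grk1, the nearest of the 3 at 43424 bases and with a mean of only 2.62 CPM, rose by 2.35 (edgeR adjusted p = 0.00567). Tmco3, at 142449 bases, rose by 0.59 (0.0159). Mertk lies 497 kb before the interleukin gene Il1a on chromosome 2. The tested genes nearest to Mertk, Anapc1 at 11601 bases and Tmem87b at 16114, fell by 0.29 and 0.48 (edgeR adjusted p = 0.0171 and 0.00221).

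The Trem locus on chromosome 17 went several ways. Trem1 and Trem3 were called higher with LPS, Treml2 had no call (−0.27, edgeR adjusted p = 0.654), and B430306N03Rik, which lies 19889 bases from Trem2, fell by 0.64 (edgeR adjusted p = 9.13e-05).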
